A study of Mus musculus with 6 samples.

Results

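The genes described here are 37 genes that sense, signal and repair DNA double-strand breaks in mouse. They were chosen by name, by matching the gene IDs of a count table of 55487 genes to their GENCODE M21 symbols. All 37 were found and all 37 had enough counts to be tested. They were divided by role into 21 genes of homologous repair, among them 4 Fanconi anaemia genes, 10 genes of end joining, and 6 checkpoint genes. The samples were 6 RNA libraries from RAW264.7, a mouse macrophage cell line transformed by Abelson leukaemia virus that can form osteoclasts. Of these, 3 carried the genotype label RhoA knockout and had been targeted with a tool called SMART-Cas9, and 3 were labelled wt and served as the control. The labels give RANKL and M-CSF, which together induce osteoclasts, as the treatment of all 6, with no dose or time, while the study's design text calls the control cells untreated. No group received Cas9 without the targeting of RhoA, so a response to Cas9 cutting and a response to the edit cannot be told apart. The labels do not say whether the edited cells were a clone or a pool, or whether the libraries of a group came from separate cultures. The p-values below therefore measure only the spread between these libraries, which may be technical.

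Cells mend a double-strand break by joining its ends directly or by copying from an intact sister. End joining works throughout the cell cycle and needs the Ku dimer, the kinase DNA-PK and a ligase complex. Homologous repair needs the ends to be cut back to single strands, which the BRCA proteins prepare for pairing with the sister, and is largely limited to S and G2 phase. The kinases ATM and ATR signal the break to the cell cycle through the checkpoint kinases CHK2 and CHK1. Many genes of homologous repair are transcribed most in cycling cells, under E2F control.

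Totals per library ran from 60198645 to 81830819 counts. Levels are given as CPM, counts relative to the library total, scaled by TMM, a method that sets the libraries to a common scale from the bulk of their genes. Differences are log2 fold changes of the libraries labelled RhoA knockout over control, from edgeR's quasi-likelihood test with Benjamini-Hochberg adjustment over 12930 genes, and a gene is called where its adjusted p is under 0.05. Rhoa itself held 34.2, 29.9 and 31.5 CPM in the libraries labelled RhoA knockout, compared with 21.4, 25.8 and 24.4 CPM in the control libraries. It was thus called higher, not lower, where the label says knockout (log2 fold change 0.41 ± 0.12, SE, adjusted p = 0.0136). The adjusted p was 0.0741 or 0.0645 without replicate 1 of the RhoA knockout or the control group. With the length correction described below the log2 fold change was 0.75 (adjusted p = 0.000304). An edit that does not lower the transcript level cannot be seen in these counts. Replicate 3 of each group stood apart from the other 2 of its group, with a chi-square per degree of freedom of 80.8 or more, against 26.3 and 20.7 between replicates 1 and 2. Of 12 macrophage markers 11 were tested, and 4 were higher and 5 lower (36.4% and 45.5%). Of all genes tested 21.0% were higher and 22.3% lower. The macrophage markers had a median log2 fold change of 0.08. Their sum was 81700 to 114000 CPM in the libraries labelled RhoA knockout and 18500 to 20300 CPM in the control libraries, most of it Lyz2, which averaged 88300 CPM in the libraries labelled RhoA knockout and 16800 CPM in the control libraries. Of 10 osteoclast markers 7 were tested, and 2 were higher and 3 lower (28.6% and 42.9%), with a median of -0.77. Their sums overlapped, at 27.3 to 27.5 CPM in the libraries labelled RhoA knockout and 24.3 to 27.7 CPM in the control libraries. The part of these markers in the repair gene differences was not tested. The 10 most abundant genes took 43.1% to 46.8% of counts in the libraries labelled RhoA knockout and 59.5% to 61.0% in the control libraries. The 28 markers of fibroblasts, lymphocytes, epithelium, endothelium, erythroid cells and granulocytes summed to at most 0.0895 CPM per list in the libraries labelled RhoA knockout and 1.44 CPM in the control libraries.

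Promoter windows are shown first because the E2F family drives many of these genes in cycling cells. RefSeq windows on GRCm38.p6, from 250 bases before to 50 after the transcription start, were matched by symbol for 29 of the 37 genes. An E2F-type motif was searched on both strands. Its letters were TTCCCGC in the first form, TTGGCGC in the next, TTCGCGC in another and TTGCCGC in the last. It was in 18 of the 29 windows, or 62.1%. It was in 18% of the windows of 8812 tested genes and in 9.57% of all 32851 windows. By call, it was in 3 of 5 windows of genes called higher, 1 of 3 of genes called lower and 14 of 21 of genes not called. CCAAT was in 15 of the 29 windows (51.7%, against 39.7% of tested genes) and GGGCGG was found in 21 (72.4%, against 64.7%). TTTGAA went the other way, in 2 of the 29 windows (6.9%, against 12.7%). Motifs were searched apart from each other and may overlap. The windows of 2 genes that were higher, Rad51ap1 and Xrcc6, and of Rad52, which was lower, are given 5′ to 3′ with the E2F-type match in capitals, which here is the reverse complement of the first form. They lie at chr6:126939538-126939837 on the minus strand, chr15:82016119-82016418 on the plus strand and chr6:119902448-119902747 on the plus strand.
Rad51ap1: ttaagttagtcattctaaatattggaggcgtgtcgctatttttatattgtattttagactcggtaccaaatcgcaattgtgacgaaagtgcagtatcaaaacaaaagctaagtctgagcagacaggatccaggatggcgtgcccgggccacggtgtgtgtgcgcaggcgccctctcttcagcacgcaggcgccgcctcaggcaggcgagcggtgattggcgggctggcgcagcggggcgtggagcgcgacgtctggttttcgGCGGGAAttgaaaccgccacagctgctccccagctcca
Xrcc6: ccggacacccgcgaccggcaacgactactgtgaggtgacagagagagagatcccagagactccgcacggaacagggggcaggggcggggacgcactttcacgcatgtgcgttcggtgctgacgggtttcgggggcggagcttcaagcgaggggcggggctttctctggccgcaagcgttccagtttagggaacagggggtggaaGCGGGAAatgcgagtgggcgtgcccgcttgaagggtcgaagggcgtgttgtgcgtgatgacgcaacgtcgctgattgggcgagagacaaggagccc
Rad52: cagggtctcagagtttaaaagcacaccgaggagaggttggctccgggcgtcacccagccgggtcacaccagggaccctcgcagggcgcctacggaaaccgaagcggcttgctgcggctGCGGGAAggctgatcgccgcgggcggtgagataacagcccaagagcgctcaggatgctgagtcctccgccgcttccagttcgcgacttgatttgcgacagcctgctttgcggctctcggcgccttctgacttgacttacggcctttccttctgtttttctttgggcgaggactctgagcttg
These windows were picked to show the match, and Rad52 is the only gene called lower in which it was found. Exo1 and Rad50, which were called higher, had no matched window. The part of the motif in the differences was not tested.

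In the libraries labelled RhoA knockout 7 of the 37 repair genes were higher, 3 were lower and 27 were not called. The 7 were Exo1, Rad54l, Rad51ap1, Brca1, Rad50, Parp1 and Xrcc6, and the 3 were Mre11a, Rad52 and Atr. The called share was 27%, against 43.2% of all genes tested, with 21.0% of all genes called higher and 22.3% called lower. The median log2 fold change of the 37 genes was 0.03, and that of all genes -0.03. By their levels in single libraries, 12 of the 37 had no overlap between groups and lay higher, and 5 had none and lay lower, or 32.4% and 13.5%. For all genes these shares were 27.5% and 28.3%. The groups overlapped for the other 20 genes (54.1%), as the plot of levels by library shows.

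**Figure D1:**
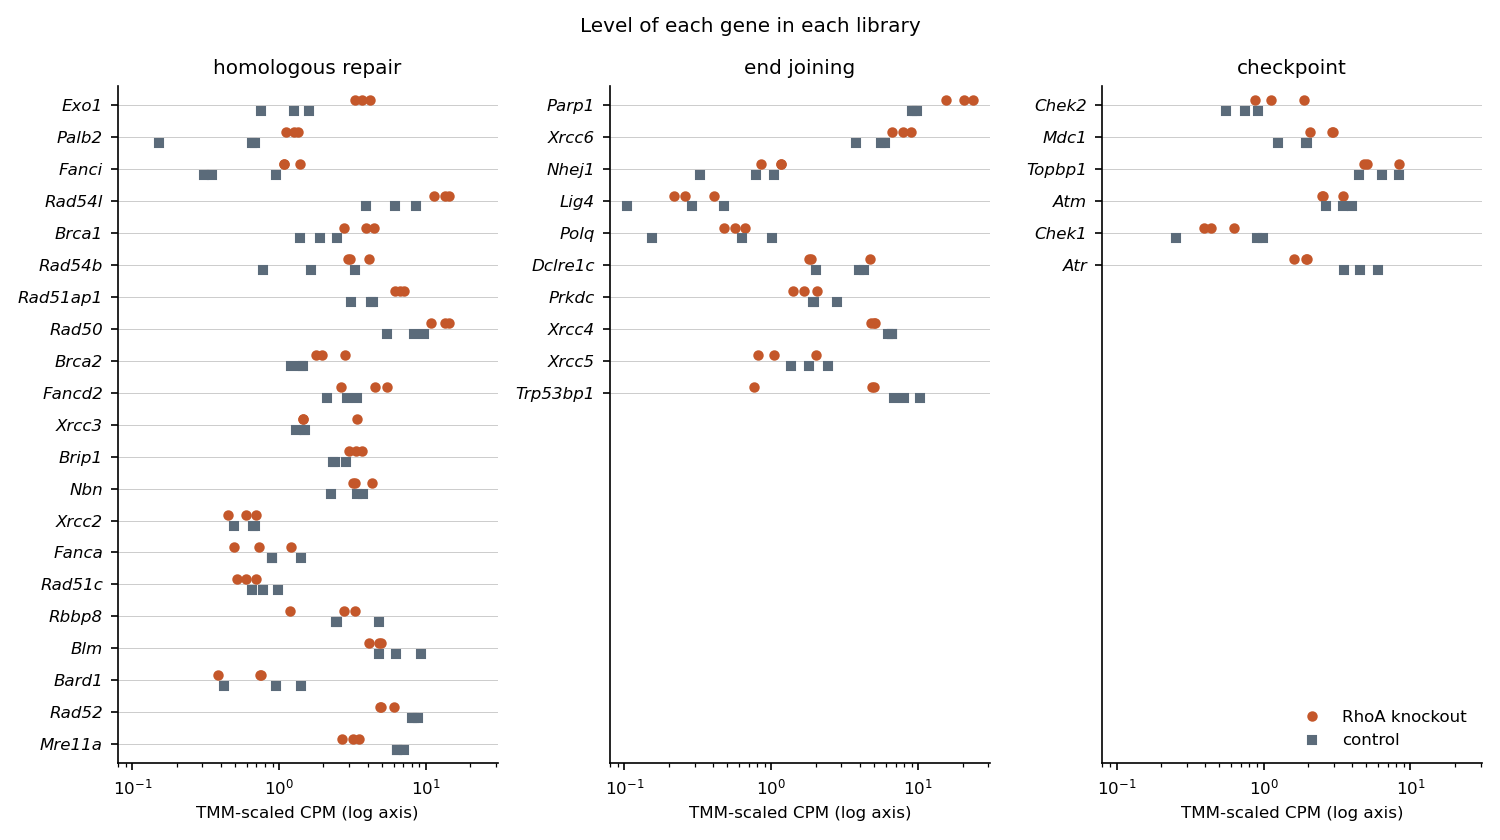
TMM-scaled CPM (log axis) of each of the 37 genes in each library, by role, with circles for the 3 libraries labelled RhoA knockout and squares for the 3 control libraries. Exo1, Parp1 and Rad51ap1 lie apart and higher in the libraries labelled RhoA knockout, Mre11a, Rad52 and Atr lie apart and lower, and Trp53bp1 in replicate 3 of the RhoA knockout group lies far below the rest.

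These genes were not abundant. Their median level over the 6 libraries was 2.81 CPM, against 3.35 CPM for all genes tested, and ran from 0.292 CPM for Lig4 to 14.6 CPM for Parp1. Of the 10 repair genes under 1 CPM none was called by edgeR or DESeq2 and 1, Palb2, had an unadjusted p under 0.05. limma-voom called 2, Palb2 and Fanci, and by edgeR 13.6% of all genes at that level were called. Between 1 and 3 CPM 2 of 11 were called, against 35.2% of all genes. Between 3 and 10 CPM 6 of 14 were called, 3 in each direction, against 52.2%. Both genes above 10 CPM, Parp1 and Rad50, were called, against 65.8%.

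Among the genes of homologous repair 5 of 21 were higher and 2 lower, with a median log2 fold change of 0.54. These shares were 23.8% and 9.52%, against 21.0% and 22.3% of all genes, so the higher share was near that of all genes. The genes that cut back the ends went apart. Exo1, a nuclease that carries out long-range resection, had 4.12, 3.67 and 3.30 CPM in the libraries labelled RhoA knockout, compared with 1.26, 1.59 and 0.747 CPM in the control libraries. The lowest library labelled RhoA knockout was thus above the highest control library. Exo1 lies on chromosome 1 from 175880581 to 175913489 (GRCm38). Its log2 fold change of 1.62 ± 0.32 (SE, adjusted p = 0.00153), or 3.08-fold, was the highest of the 37.

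The MRN complex, which binds broken ends first and activates ATM, consists of MRE11, RAD50 and NBS1. Mre11a, which encodes its nuclease, had 3.2, 3.48 and 2.66 CPM in the libraries labelled RhoA knockout, compared with 7.04, 6.37 and 6.31 CPM in the control libraries. Rad50, its ATPase that tethers the ends, had 10.8, 14.2 and 13.4 CPM in the libraries labelled RhoA knockout, compared with 9.64, 8.27 and 5.38 CPM in the control libraries. Neither gene overlapped between groups, and the 2 differed in opposite directions. Mre11a had a log2 fold change of -1.08 ± 0.20 (SE, adjusted p = 0.00107) and Rad50 one of 0.72 ± 0.21 (adjusted p = 0.0155). Mre11a shares 154 exonic bases with Ankrd49 on the other strand, which held 1888 counts against 2064 for Mre11a. The call of Rad50 was lost without replicate 2 or replicate 3 of the RhoA knockout group (adjusted p = 0.0737 and 0.0517). Nbn, which encodes NBS1, the subunit that recruits ATM, had a log2 fold change of 0.20 ± 0.27 and overlapped between groups. Per kilobase of merged exons, Rad50 averaged 2.38 ± 0.332 CPM, Nbn 1.41 ± 0.240 and Mre11a 0.525 ± 0.0707 in the libraries labelled RhoA knockout (SD, n = 3). In the control libraries Rad50 averaged 1.44 ± 0.405, Nbn 1.22 ± 0.303 and Mre11a 1.11 ± 0.0679 CPM per kilobase. By single libraries, the ranges of the 3 genes overlapped in the control libraries and lay apart in the libraries labelled RhoA knockout. Levels of different genes were not compared by a test.

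Of the other resection genes, Blm, a helicase that works with nucleases and dissolves joint molecules, had a log2 fold change of -0.56 ± 0.24 and an adjusted p of 0.0837. It was 0.0229 without control replicate 3, with a log2 fold change of -0.75. Rbbp8, which encodes CtIP, the cofactor that starts resection, ran from 1.18 to 3.30 CPM in the libraries labelled RhoA knockout and from 2.44 to 4.77 CPM in the control libraries, which overlap (log2 fold change -0.42 ± 0.40).

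The BRCA complex, which acts on the resected ends, had 1 called gene of 4. Brca1 had 4.44, 3.92 and 2.75 CPM in the libraries labelled RhoA knockout, compared with 2.49, 1.9 and 1.39 CPM in the control libraries. Its groups lay close but did not overlap, and its log2 fold change was 0.94 ± 0.31 (SE, adjusted p = 0.0259). This call was lost in 4 of 6 fits that left out a library, namely replicates 1 and 2 of the RhoA knockout group (adjusted p = 0.114 and 0.0814) and control replicates 2 and 3 (0.069 and 0.0824). Bard1, the partner that forms the ubiquitin ligase with BRCA1, had 0.743, 0.749 and 0.381 CPM in the libraries labelled RhoA knockout and 0.946, 1.40 and 0.424 CPM in the control libraries. The groups overlapped and the log2 fold change was -0.56 ± 0.56. Palb2, the bridge between BRCA1 and BRCA2, had 1.35, 1.26 and 1.12 CPM in the libraries labelled RhoA knockout, compared with 0.648, 0.683 and 0.153 CPM in the control libraries. Its log2 fold change of 1.32 ± 0.56 missed the threshold (adjusted p = 0.0742), and control replicate 3 held 9 counts. Brca2, which prepares the resected ends for strand exchange, had 1.96, 2.79 and 1.77 CPM in the libraries labelled RhoA knockout, compared with 1.44, 1.21 and 1.41 CPM in the control libraries. These groups did not overlap either, with a log2 fold change of 0.68 ± 0.32 and an adjusted p of 0.108.

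Among the 7 mediators and strand-exchange factors 2 were higher and 1 lower. Rad54l, a motor protein that drives strand invasion, had 14.3, 13.5 and 11.3 CPM in the libraries labelled RhoA knockout, compared with 6.10, 8.54 and 3.90 CPM in the control libraries. Rad51ap1, which stimulates joint molecule formation, had 6.09, 7.11 and 6.68 CPM in the libraries labelled RhoA knockout, compared with 4.33, 4.22 and 3.07 CPM in the control libraries. All libraries labelled RhoA knockout lay above all control libraries for both genes. Rad54l had a log2 fold change of 1.07 ± 0.24 (SE, adjusted p = 0.0034) and Rad51ap1 one of 0.77 ± 0.21 (adjusted p = 0.00947). Rad54l shares 1184 exonic bases with Lrrc41 on the other strand, and the strand setting of the counting is not given, so reads from these bases could belong to either. Lrrc41 itself was lower, with a log2 fold change of -0.61 ± 0.18 (adjusted p = 0.0178).

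Rad52, which anneals single strands, had 4.86, 6.07 and 4.92 CPM in the libraries labelled RhoA knockout, compared with 8.06, 8.27 and 8.81 CPM in the control libraries. The groups were apart, with a log2 fold change of -0.66 ± 0.17 (SE, adjusted p = 0.00843). The call was lost when libraries were set to a common scale by their totals alone (-0.48, adjusted p = 0.0916). Rad54b, a relative of Rad54l, was at 0.82 ± 0.43 and overlapped between groups. It was called without control replicate 2, at 1.44 with an adjusted p of 0.0151, and by limma-voom, at 1.03 with an adjusted p of 0.0435. Rad54b shares 2068 exonic bases, 35.8% of its exons, with Fsbp on the same strand, so its count is uncertain. Fsbp held 73 counts over the 6 libraries and Rad54b held 1197. Rad51c, Xrcc2 and Xrcc3, which assist strand exchange, were not called. Rad51c had a log2 fold change of -0.41 ± 0.49, Xrcc2 of -0.08 ± 0.54 and Xrcc3 of 0.54 ± 0.39. Xrcc3 had 3.38 CPM in replicate 3 of the RhoA knockout group and 1.44 in both others, against 1.48, 1.5 and 1.31 CPM in the control libraries, and stood at -0.04 without replicate 3 of both groups.

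None of the 4 Fanconi anaemia genes, which unhook crosslinks and hand the resulting breaks to homologous repair, was called by edgeR or DESeq2, and 0 of the 4 had an unadjusted p under 0.05 by edgeR. limma-voom called 1, Fanci. Fanci, a subunit of the clamp that is ubiquitinated on damage, had 1.38, 1.07 and 1.08 CPM in the libraries labelled RhoA knockout, compared with 0.350, 0.308 and 0.950 CPM in the control libraries. Its log2 fold change was 1.14 ± 0.53 (adjusted p = 0.106), and 1.83 with an adjusted p of 0.0168 without control replicate 3. Fancd2, the other clamp subunit, was at 0.59 ± 0.30, and at 0.84 with an adjusted p of 0.036 without replicate 3 of the RhoA knockout group. Brip1, a helicase bound by BRCA1, was at 0.40 ± 0.25, and Fanca, of the ubiquitin ligase core, at -0.40 ± 0.48. Fanci and Fanca overlap Polg (921 exonic bases) and Zfp276 (920) on the other strand, so their counts are uncertain.

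Of the 10 end joining genes 2 were higher and none was lower by edgeR or DESeq2, with a median log2 fold change of -0.19. The higher share was 20%, near the 21.0% of all genes called higher, while 22.3% of all genes were called lower. Of those below 0, 1 had an unadjusted p under 0.05, Xrcc4, and limma-voom called 1 lower, Trp53bp1. Parp1, a sensor of breaks that serves alternative end joining and single-strand repair, had 23.4, 20.3 and 15.5 CPM in the libraries labelled RhoA knockout, compared with 9.78, 9.50 and 9.04 CPM in the control libraries. It lies on chromosome 1 from 180568924 to 180601254. The lowest library labelled RhoA knockout was well above the control libraries, which lay close together. Its log2 fold change was 1.06 ± 0.16 (SE, adjusted p = 0.000212), the smallest p of the 37 genes. It was also the most abundant of the 37 per kilobase in each group, at 3.73 ± 0.756 CPM per kilobase in the libraries labelled RhoA knockout and 1.78 ± 0.0706 in the control libraries (SD, n = 3 each). Polq, the polymerase of the same alternative pathway, was at or under 1.01 CPM in each library and had a log2 fold change of -0.08 ± 0.68.

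Of the genes for the 2 subunits of Ku, the ring that caps broken ends, only Xrcc6 was called. Xrcc6, which encodes Ku70, had 7.88, 6.59 and 8.85 CPM in the libraries labelled RhoA knockout, compared with 5.59, 5.96 and 3.75 CPM in the control libraries. The groups did not overlap, and the log2 fold change was 0.61 ± 0.21 (SE, adjusted p = 0.0382). The call was lost without replicate 1 or 3 of the RhoA knockout group, without control replicate 1 or 3, and with the replicate number as a block, with adjusted p-values of 0.0614 to 0.126. Xrcc6 shares 344 exonic bases with Desi1 on the other strand, which was lower (-0.55 ± 0.19, adjusted p = 0.0372). Xrcc5, which encodes Ku80, had 1.04, 2.02 and 0.815 CPM in the libraries labelled RhoA knockout and 1.35, 1.79 and 2.41 CPM in the control libraries. These overlapped, with a log2 fold change of -0.51 ± 0.41 (adjusted p = 0.348). Without replicate 3 of both groups Xrcc5 was at -0.03 and Xrcc6 at 0.33, and neither was called. Whether the 2 genes differed from each other was not tested. Per kilobase, Xrcc6 averaged 1.74 ± 0.253 CPM and Xrcc5 0.506 ± 0.252 CPM in the libraries labelled RhoA knockout, and in the control libraries Xrcc6 averaged 1.14 ± 0.264 and Xrcc5 0.724 ± 0.209 CPM (SD, n = 3 each).

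Prkdc, the catalytic subunit of DNA-PK that Ku recruits, had a log2 fold change of -0.38 ± 0.31. Dclre1c, which encodes the nuclease Artemis that opens hairpin ends, was at -0.29 ± 0.40. It shares 357 exonic bases with Suv39h2 on the other strand, so its count is uncertain. Suv39h2 held 414 counts over the 6 libraries and Dclre1c held 1357. Suv39h2 was at -1.05 ± 0.54 and was not called (adjusted p = 0.141). Of the ligation complex, Xrcc4, the scaffold, had 4.76, 5.01 and 5.08 CPM in the libraries labelled RhoA knockout, compared with 6.66, 6.58 and 6.23 CPM in the control libraries. It varied least among replicates of all 37 genes, with a coefficient of variation of 3.31% in the libraries labelled RhoA knockout and 3.55% in the control libraries, and its groups did not overlap. Its log2 fold change of -0.39 ± 0.17 nevertheless missed the threshold (adjusted p = 0.0929). Xrcc4 shares 112 exonic bases with Tmem167 on the other strand, so its count is uncertain. Tmem167 held 31067 counts over the 6 libraries and Xrcc4 held 2491. Lig4, the ligase itself, held 8 to 31 counts per library and had a log2 fold change of 0.03 ± 0.90. Its approximate 95% interval of -1.73 to 1.79 takes the normal distribution, and is narrower than the quasi-likelihood test would give. Differences within that interval thus remain possible for Lig4, whose highest control level was also 4.58 times the lowest. Nhej1, which encodes the filament protein XLF, was at 0.55 ± 0.50.

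Trp53bp1 encodes 53BP1, which limits resection and so favours end joining. It had 4.98, 4.81 and 0.763 CPM in the libraries labelled RhoA knockout, compared with 10.3, 7.98 and 6.87 CPM in the control libraries. All libraries labelled RhoA knockout were below all control libraries, but replicate 3 held only 58 counts, against 409 and 430 in replicates 1 and 2. With all 6 libraries the log2 fold change was -1.25 ± 0.64 and the gene was not called (adjusted p = 0.172). Without replicate 3 of the RhoA knockout group it was -0.77 and passed the threshold (adjusted p = 0.0208). It did so too with the replicate number as a block (-1.56, adjusted p = 0.0394). Trp53bp1 shares 2130 exonic bases with Tubgcp4 on the other strand, whose log2 fold change was 0.04 ± 0.24.

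**Figure D2:**
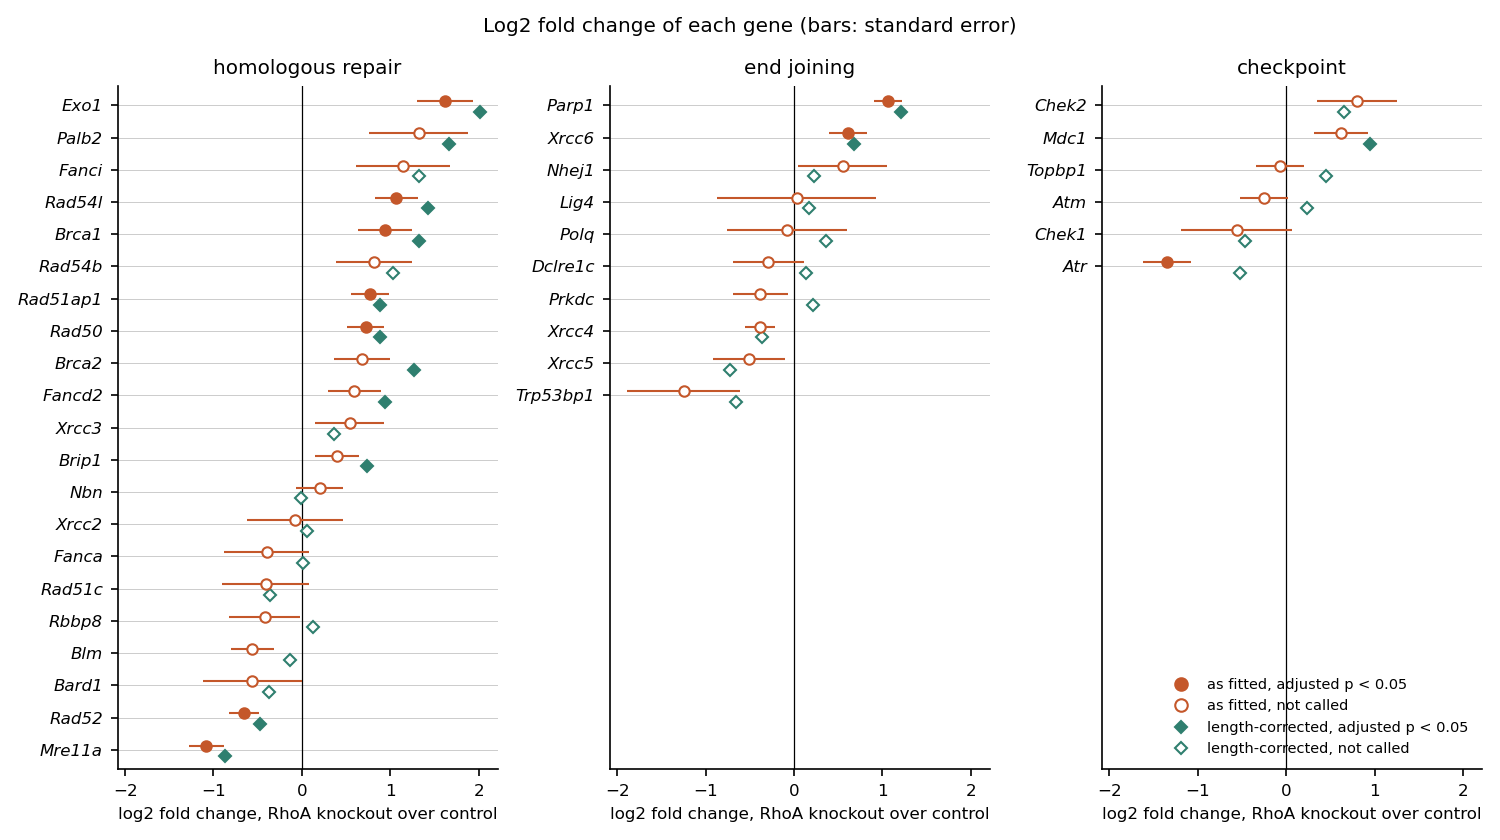
Log2 fold change of each of the 37 genes, libraries labelled RhoA knockout over control, with its standard error (circles) and after a correction for gene length (diamonds), filled where the adjusted p is under 0.05. Exo1, Rad54l, Rad51ap1, Brca1, Rad50, Parp1 and Xrcc6 are filled on the right, and the correction moves long genes such as Brca2 and Atr to the right.

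Of the 6 checkpoint genes 1 was lower and none was higher by edgeR, DESeq2 or limma-voom, with 0 of those above 0 at an unadjusted p under 0.05. By edgeR the lower share was 16.7%, against 22.3% of all genes called lower and 21.0% called higher. The median log2 fold change was -0.16. Atr, the kinase that responds to single-stranded DNA, had 1.61, 1.97 and 1.96 CPM in the libraries labelled RhoA knockout, compared with 4.54, 6 and 3.55 CPM in the control libraries. It was lower in all 3 libraries labelled RhoA knockout, with a log2 fold change of -1.35 ± 0.27 (SE, adjusted p = 0.00161). The merged exons of Atr sum to 23629 bases, the longest of the 37, and its longest transcript has 8102. With a correction for merged exon length the log2 fold change was -0.52 and the call was lost (adjusted p = 0.131). With a correction for the longest transcript, added once the data had been seen, it was -0.73 and the call held (adjusted p = 0.0413). Atm, the kinase that responds to the break itself, had a log2 fold change of -0.25 ± 0.27 and overlapped between groups.

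Topbp1, which activates ATR, was at -0.07 ± 0.27. Mdc1, the scaffold that spreads ATM signalling along chromatin, had 2.97, 2.94 and 2.06 CPM in the libraries labelled RhoA knockout, compared with 1.97, 1.96 and 1.26 CPM in the control libraries. These did not overlap, but the log2 fold change of 0.62 ± 0.31 was not called (adjusted p = 0.132). The effector kinases overlapped between groups. Chek1, downstream of ATR, was at -0.56 ± 0.63, and Chek2, downstream of ATM, at 0.80 ± 0.45.

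Gene length moved with the differences. Over all genes tested the median log2 fold change was 0.36 for merged exons of 1 to 2 kb, -0.26 for 6 to 8 kb and -0.67 for those over 12 kb. The repair genes were long, with a median of 5927 bases against 3856 for all genes. The fit was repeated with an offset for length in each library. With it 12 of the 37 genes were higher and 2 lower, against 7 and 3 without it. In the same fit 40.3% of 12919 genes were called, 20.9% higher and 19.4% lower. The calls of Brca2 (1.27, adjusted p = 0.00725), Palb2 (1.66, 0.0314), Fancd2 (0.94, 0.0218), Brip1 (0.74, 0.033) and Mdc1 (0.95, 0.025) were added, and that of Atr was lost. For homologous repair the counts became 9 higher and 2 lower of 21. The median log2 fold change of the 37 genes was then 0.24, against 0.01 for all genes. Exo1, Rad54l, Rad51ap1, Parp1 and Mre11a were called in the same direction with and without the correction, as were Brca1, Rad50, Xrcc6 and Rad52. With the longest transcript as length, added once the data had been seen, Palb2 was not called (1.48, adjusted p = 0.051). Atr kept its call there.

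**Figure D3:**
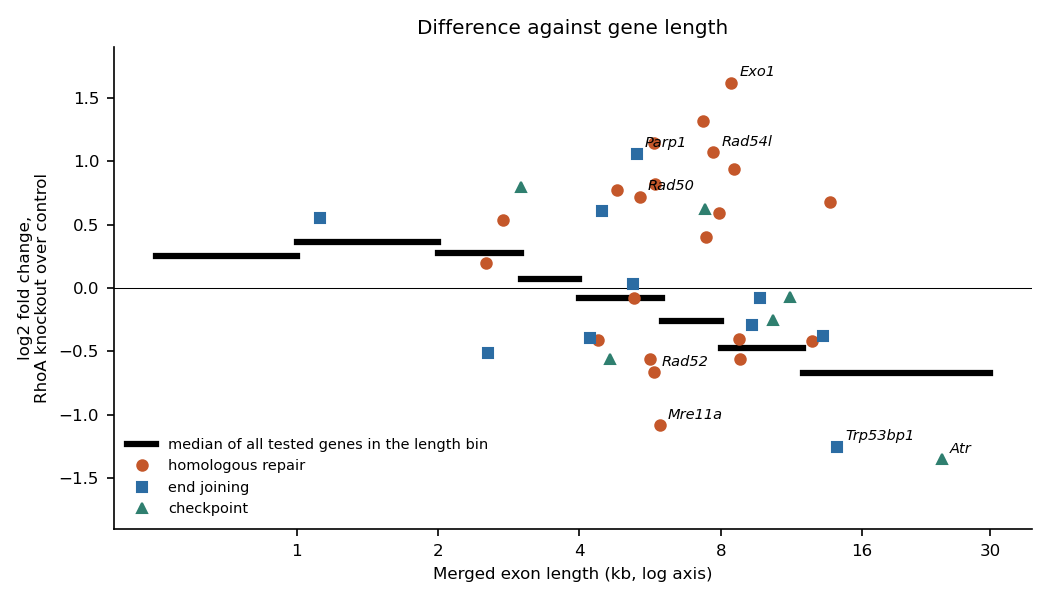
Log2 fold change (libraries labelled RhoA knockout over control) of each of the 37 genes against its merged exon length in kb (log axis), by role, over the median of all tested genes in each length bin (black lines). The medians run from 0.36 for 1 to 2 kb to -0.67 over 12 kb, and Exo1, Rad54l and Brca1 lie well above the line for their length.

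The other genes of these pathways were described from lists of known members, for which 43.2% of all genes is again the background. Of 42 other homologous repair genes 16 were higher and 4 lower (38.1% and 9.52%), with a median log2 fold change of 0.56. The smallest p-values were those of Rpa1 (73.6 CPM in the libraries labelled RhoA knockout and 20.7 CPM in the control libraries, log2 fold change 1.83) and Rpa2 (62.8 CPM in the libraries labelled RhoA knockout and 19.8 CPM in the control libraries, 1.66), which coat single-stranded DNA. They were followed by Swsap1, a partner of SWS1 in homologous repair, at 2.06, and Swi5, a strand-exchange accessory factor, at 0.81. Of 17 other Fanconi anaemia genes 1 was higher and 2 lower, with Ube2t, the ubiquitin-conjugating enzyme of the pathway, at 1.11, Ercc1 at -0.72 and Usp1 at -0.68. Of 30 other end joining and break-response genes 11 were higher and 4 lower, with Fen1, a flap nuclease, at 2.49 (24.2 CPM in the libraries labelled RhoA knockout and 4.29 CPM in the control libraries), Rnf8, a ubiquitin ligase at breaks, at 2.09, and Abraxas1 and Babam2, of a BRCA1-bound complex, at 1.25 and 0.68. Of 28 other checkpoint genes 5 were higher and 6 lower. Tipin, which protects stalled forks, was at 1.89 and Trp53 at 1.54, while Cdkn1a, the cell cycle inhibitor induced by p53, was at -1.49 and Tlk2 at -1.60.

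Replication and mitosis genes, which mark cycling cells, were for the most part higher. Of 36 replication genes 29 were higher and none lower by edgeR (80.6%), against 21.0% higher and 22.3% lower of all genes tested. Their median log2 fold change was 1.25, led by Mcm7, Rfc2, Rfc5 and Pcna by p-value, at 2.16, 1.58, 2.32 and 1.39. Of 27 mitosis genes 22 were higher and none lower (81.5%), with a median of 1.53, led by Birc5, Cenpa, Ccnb2 and Cdk1 by p-value, at 2.82, 2.60, 3.04 and 1.79. Over all genes the share called higher rose with level, from 6.18% under 1 CPM to 58.4% over 30 CPM. The 2 lists were not compared with genes of like level. With the length correction 27 replication and 23 mitosis genes were higher, and again none was lower. DESeq2 and limma-voom also called 29 and 22 higher and 0 lower, and edgeR gave 0 lower at an unadjusted p under 0.05. Summed over each list, replication genes held 1350 to 1400 CPM in the libraries labelled RhoA knockout and 465 to 572 CPM in the control libraries. Mitosis genes held 832 to 872 CPM in the libraries labelled RhoA knockout and 195 to 287 CPM in the control libraries. The 37 repair genes summed to 146.9, 144.1 and 122.6 CPM in the libraries labelled RhoA knockout and to 127.6, 131.8 and 99.2 CPM in the control libraries, which overlap. The ratio of the group means was 2.57 for replication, 3.32 for mitosis and 1.15 for the 37 repair genes, and the part of cell cycle genes in the repair gene differences was not tested. In bulk RNA, fewer cells of a type and less RNA per cell cannot be told apart.

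**Figure D4:**
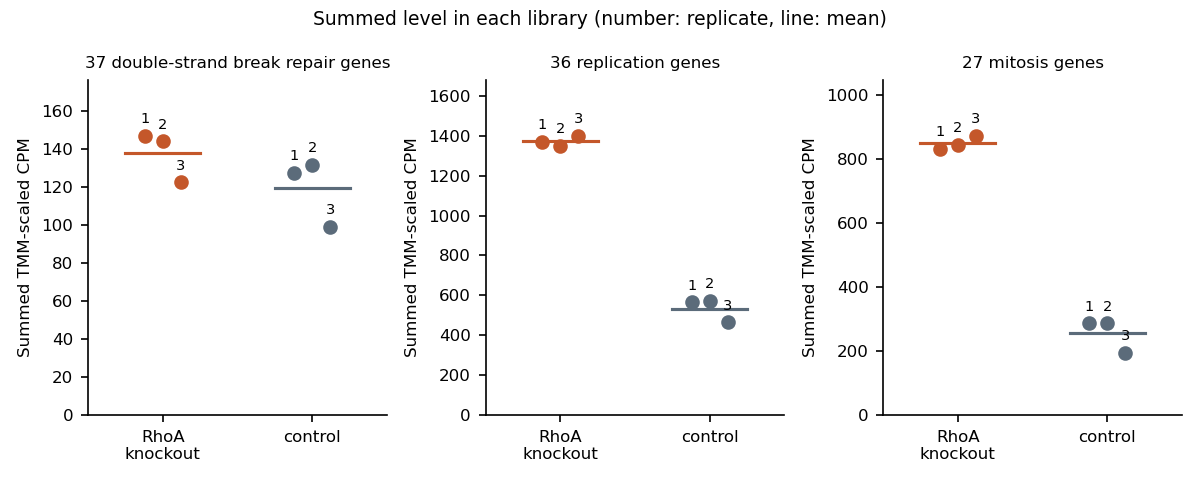
Summed TMM-scaled CPM of the 37 double-strand break repair genes, 36 replication genes and 27 mitosis genes in each library (points, with the replicate number) and the mean of each group (lines, n = 3). The groups lie far apart for replication and mitosis, and overlap for the repair genes, for which replicate 3 is lowest in each group.

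Cell cycle regulators were called in both directions, at shares below those of all genes. Of 25 E2F and cell cycle regulators 3 were higher and 5 lower (12% and 20%). Of all genes tested 21.0% were higher and 22.3% lower. The median log2 fold change of these regulators was 0.04, with Cdk4 at 1.51, Ccnd1 at -0.97, Ccnd2 at -1.55 and Cdk6 at -0.60. Among 24 targets of p53 there were 2 higher and 11 lower (8.33% and 45.8%), with a median of -0.94. Polk was at -2.44, Plk3 at -5.26, Cdkn1a at -1.49 and Sesn1 at 1.89. Of 34 genes of excision and mismatch repair, which mend other kinds of damage, 7 were higher and 4 lower, with a median of 0.14. Apex1, the abasic site nuclease, was at 2.69 (171 CPM in the libraries labelled RhoA knockout and 26.4 CPM in the control libraries), Ung, which removes uracil, at 2.20, Mgmt at 1.28 and Polb at -0.73. The plot of calls by list sets the shares of the repair, replication and mitosis lists side by side.

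**Figure D5:**
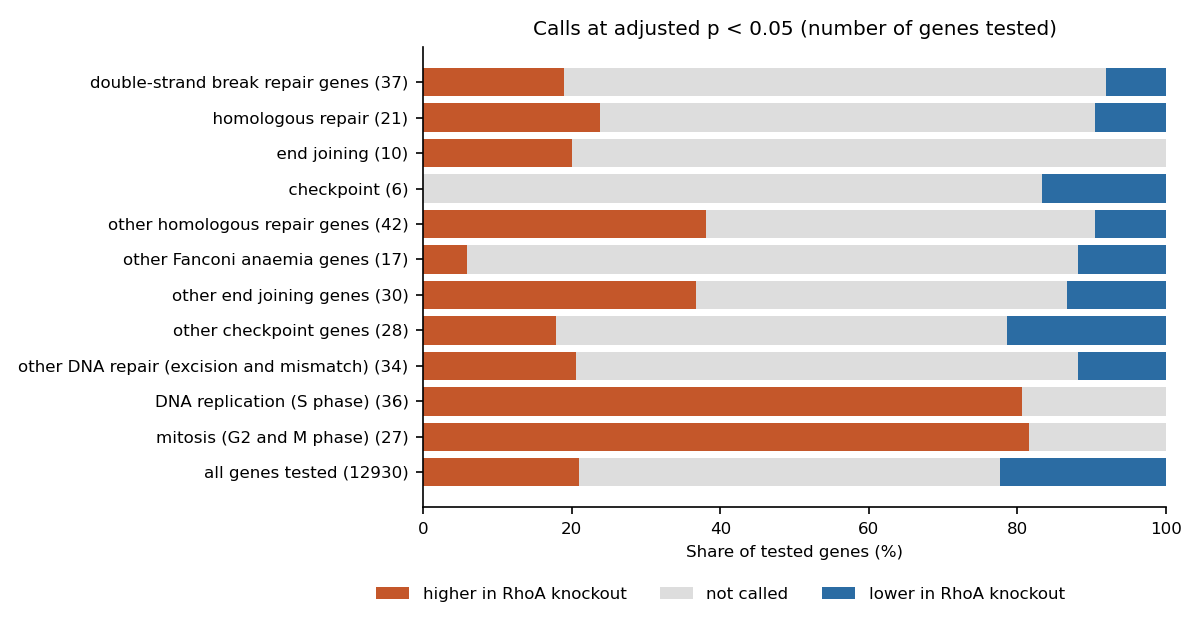
Share of tested genes called higher (left, orange), not called (grey) and called lower (right, blue) in the libraries labelled RhoA knockout, for the 37 double-strand break repair genes, their 3 roles and the other lists, with the number of genes tested. Replication (80.6%) and mitosis (81.5%) genes have the longest orange bars, beside 18.9% higher and 8.11% lower for the repair genes and 21.0% and 22.3% for all genes tested.

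Replicates of a group also differed. Replicate 3 was the lowest of its group for 19 of the 37 genes in the libraries labelled RhoA knockout and for 22 of the 37 in the control libraries, against 35.5% and 35.7% of all genes. The control libraries ranged widest for Polq, Lig4 and Palb2, with a highest level 6.57, 4.58 and 4.47 times the lowest. Trp53bp1 ranged widest among the libraries labelled RhoA knockout, at 6.54 times. Without replicate 3 of both groups, which was added once the data had been seen, 6 of the 37 genes were higher and 4 lower, against 7 and 3 with it. The calls of Rad50 (0.48, adjusted p = 0.0806), Xrcc6 (0.33, 0.232) and Rad52 (-0.57, 0.0547) were then lost, and those of Fanci (1.9, 0.0308), Blm (-0.80, 0.0354) and Trp53bp1 (-0.89, 0.0104) appeared.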

How the data were processed

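The authors deposited a table of whole-number counts per gene, without normalization, for 6 libraries. Total RNA was isolated with Trizol and sequenced on Illumina libraries, per the labels' protocols. GRCm38 is the build, per the submitters' processing notes. The aligner, counter and strand setting were not given in the sources used here. All value columns were matched to samples by name. Of the gene IDs 55227 had a GENCODE M21 symbol and 260 had none. In each library counts at multiples of 4 occurred 1.32 to 1.45 times as often as adjacent values, for a cause that was not tested.

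Genes were filtered with filterByExpr at its defaults and fitted with edgeR 4.0.16 in R 4.3.3 (TMM, robust glmQLFit, glmQLFTest). The common BCV (replicate variation) was 0.32. Each SE is the size of the log2 fold change divided by the root of F. Alternatives were other scalings, filters and tests, a replicate block, each library left out, counts divided by 4 and a length correction. They used DESeq2 1.42.0 and limma 3.58.1 (voom). The procedure was tested on 5 simulated datasets. Calls were made for 15.8% of the genes set to differ 1.5-fold, 43.3% at 2-fold and 78.8% at 4-fold. Among all calls 7.1% were false. A gene that was not called may thus still differ. The length correction is a lowess offset per library on merged exon length. Overlapping exons came from the annotation, and near-identical transcripts were sought with blastn 2.17.0 at 95% identity over 200 bases, where every match was an overlapping neighbour. Members and lists were chosen with earlier results of these data known. All members are reported. From other lists the text names up to 4 called genes with the smallest p.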

Additional observations from a re-analysis of the deposited data

How the results depend on the processing

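Of the 10 called repair genes, Exo1, Rad54l, Rad51ap1, Parp1 and Mre11a kept their call and direction under all 18 alternatives, with log2 fold changes of 1.38 to 2.22, 0.84 to 1.43, 0.59 to 0.94, 0.90 to 1.26 and -1.18 to -0.66. DESeq2 called 7 repair genes higher and 3 lower, as did edgeR. Leaving out a library in turn gave 5 to 7 repair genes higher and 3 to 4 lower (homologous repair 3 to 5 and 2 to 3, end joining 1 to 2 and 0 to 1, checkpoint 0 and 1). The length correction gave 12 repair genes higher, 9 of them in homologous repair, and in the checkpoint group 1 higher and 0 lower. With the longest transcript in its place, added once the data had been seen, the counts were 11, 8 and 1 higher. limma-voom called 8 homologous repair genes higher and 1 end joining gene lower, and library totals left 1 homologous repair gene lower. With the replicate block, and likewise without replicate 3 of both groups, 1 end joining gene was higher and 1 lower. The causes were not tested. Same-numbered libraries correlated at 0.02, 0.03 and 0.07 in their deviations. These values give no clear sign that the numbers pair the libraries, but cannot exclude it. The block added Trp53bp1, lost Xrcc6 and changed no other call.

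Signs changed only for genes not called, with adjusted p of 0.179 or more. The length correction put Nbn at -0.01, Rbbp8 at 0.13, Xrcc2 at 0.06, Fanca at 0.01, Prkdc at 0.21, Dclre1c at 0.14, Polq at 0.36, Atm at 0.24 and Topbp1 at 0.45. With the longest transcript Prkdc was at 0.41, Dclre1c at 0.25, Polq at 0.54, Atm at 0.44 and Topbp1 at 0.30. Library totals gave Xrcc2 0.10, Polq 0.10 and Topbp1 0.12. Polq was at 0.14 with limma-voom and 0.20 with the block, and Xrcc3 at -0.04 without replicate 3 of both groups. Leaving out a library gave Nbn -0.01 to 0.35, Xrcc2 -0.25 to 0.05, Lig4 -0.38 to 0.59, Polq -0.55 to 0.54 and Topbp1 -0.38 to 0.14. Library totals raised the share of higher calls among all genes to 59.8%, against 48.5% with TMM, and the median of all genes to 0.15. Levels per kilobase of 20 repair genes moved by over 1 SD with the longest transcript as length. Counts of 8 to 31 per library limit what Lig4 can show.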
